A study of Rattus norvegicus with 30 samples.

Results

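The transcripts of 9 genes of the xenobiotic response were followed in primary rat hepatocytes exposed to acetaminophen. They encode the pregnane X receptor PXR (Nr1i2), the constitutive androstane receptor CAR (Nr1i3), the retinoid X receptor alpha (Rxra), the glucocorticoid receptor (Nr3c1), the aryl hydrocarbon receptor AhR (Ahr) and its partner ARNT (Arnt), and 3 genes that such sensors act on, Cyp1a1, Tiparp and Alas1. The genes were taken by symbol from the array's annotation, which gave 9 of the 14217 named genes and 12 of the 31042 probe sets that were not controls. Each gene was read from the probe set with the highest mean log2 signal, and the second probe sets of Ahr, Nr3c1 and Tiparp were kept as a check. No measured change entered the choice of probe set.

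PXR and CAR are nuclear receptors of the liver that respond to drugs and bile acids, pair with RXR on DNA and raise the transcription of cytochrome P450, conjugation and transport genes. AhR is a ligand-activated factor of another family, held in the cytoplasm by a chaperone complex, and with ARNT it turns on Cyp1a1 and also Tiparp, an ADP-ribosyltransferase that in turn limits AhR. The glucocorticoid receptor maintains the transcription of the PXR and CAR genes in hepatocytes, and Alas1 encodes the rate-limiting enzyme of the heme synthesis that new cytochrome P450 protein requires.

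Frozen hepatocytes of male Sprague Dawley rats, bought from a supplier, were thawed, plated on collagen in multiwell plates and covered with Matrigel. Dosing took place on the third culture day with 500 µM or 5000 µM acetaminophen, prepared in DMSO, or with 1% DMSO alone as vehicle, and RNA was taken 24 or 48 h later, and the labels name DMSO for the dosing solutions as well. Each of the 6 groups (vehicle, 500 µM and 5000 µM, each at 24 and at 48 h) had 5 wells and 5 arrays, which gave 30 arrays. The wells are separate cultures of bought cells, and the labels do not tie them to animals, so the p-values speak only of variation from well to well. Values are MAS5 signals on a linear scale, and changes are differences of group means of log2 signal with their standard errors, from limma over all tested genes. A gene counts as called where its p, adjusted by Benjamini and Hochberg's method, was under 0.05. In bulk RNA, fewer cells of a type and less RNA per cell cannot be told apart.

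All 9 named hepatocyte markers were bright enough to be tested, and their summed signal overlapped between all groups, at 364699 to 520428. Of the markers of other cells, 3 of 8 named Kupffer cell and leukocyte genes, 3 of 10 stellate cell and fibroblast genes, 2 of 8 endothelial genes and 1 of 7 cholangiocyte genes passed the filter, and Clec4f, Cd163, Ptprc, Des, Lrat, Col1a1, Pecam1, Stab2, Lyve1, Krt19 and Krt7 did not. Summed Kupffer cell and leukocyte markers were 19833 to 22688 at 5000 µM and 24 h, against 22874 to 30572 in vehicle, and 20950 to 22994 at 5000 µM and 48 h, against 24541 to 28599 in vehicle. Summed stellate cell markers were lower than in vehicle at 5000 µM too, at 5474 to 7963 against 9303 to 11857 at 24 h and at 6933 to 8634 against 10297 to 13684 at 48 h. At 500 µM they were also under the vehicle range, at 7051 to 8309 at 24 h and 7589 to 10045 at 48 h. Summed cholangiocyte markers were under vehicle at 48 h, at 12307 to 13534 at 5000 µM and 11445 to 12162 at 500 µM, against 14140 to 15276. Few tested genes stood behind these sums. Of the 3 tested Kupffer cell and leukocyte genes only Cd14 was called at 5000 µM, lower at 24 and 48 h, with list medians of -0.07 and -0.15. All tested genes were called in 38.1% and 32.6% there. Of the 3 tested stellate cell genes only Vim was called, with Acta2 added at 5000 µM and 48 h. Epcam was the 1 tested cholangiocyte gene. RNA quality was read from the array's β-actin controls, as the log2 signal of the 3′ control over that of the 5′ one, and at 24 h it averaged 1.78 over vehicle wells, 1.61 over 500 µM wells and 1.37 over 5000 µM wells. At 48 h it averaged 1.24 in vehicle, 1.86 at 500 µM and 1.21 at 5000 µM, with all 5 arrays of 500 µM and none of the others at that time above the widest gap in this ratio. This ratio and the dose therefore cannot be told apart at 500 µM and 48 h, and of all tested genes 3632 were called there, against 339 with the ratio as a covariate. A call kept or lost there with the ratio as a covariate, or with its gap as a block, does not separate ratio from dose.

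Of the 9 genes, 6 were bright enough for the main test on 8530 genes, namely Nr1i2, Nr1i3, Nr3c1, Cyp1a1, Tiparp and Alas1. The probe sets of Rxra, Ahr and Arnt lay under the filter, at geometric mean signals of 289, 222 and 66.4, against 469 for the dimmest gene tested, and were fitted with all 14217 named genes instead. At 500 µM and 24 h, 1 of the 6 tested genes was called, Nr1i2, where 2.86% of all tested genes were called. At 5000 µM and 24 h there were 2, Nr1i2 and Nr1i3, against 38.1% of all tested genes. The count was 1 at 500 µM and 48 h, Alas1, against 42.6%, and at 5000 µM and 48 h it was 3, Nr1i2, Nr1i3 and Alas1, against 32.6%. The counts at 5000 µM and 24 h and at 500 µM and 48 h were below these background shares. Those at 500 µM and 24 h and at 5000 µM and 48 h were above them, on 1 and 3 genes. With only 6 genes such counts say little, so what follows describes the single genes. The wells of the 2 groups did not overlap for 2, 1, 1 and 3 of the 6 genes in these comparisons, in the order given, against 4.75%, 24.1%, 27.4% and 25.4% of all tested genes. Of the 3 genes under the filter, 1 was called, Arnt at 500 µM and 48 h, where shares of all named genes called were 1.34%, 23.2%, 24.4% and 19.4% in the same order. Of the 3 second probe sets 1 was called, that of Tiparp at 5000 µM and 24 h, against shares of all probe sets of 0.635%, 15.9%, 16.3% and 11.8%.

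**Figure D1:**
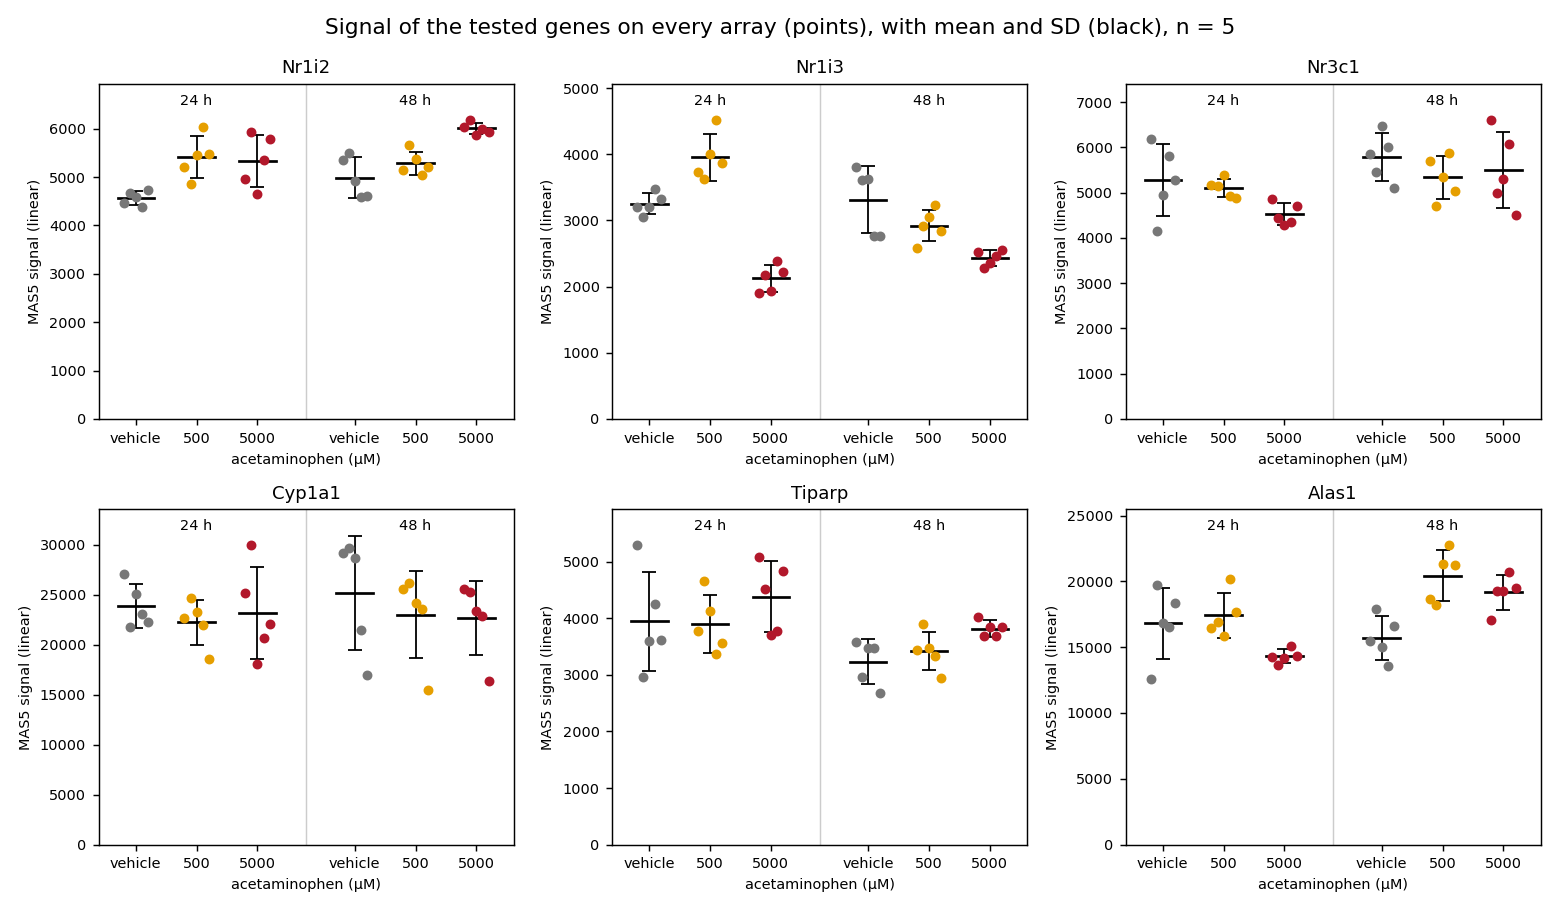
MAS5 signal (linear) of the 6 tested genes on every array, by acetaminophen concentration (µM) and time, with the group mean and SD (black, n = 5). Nr1i3 is lowest at 5000 µM at both times, Nr1i2 is highest at 5000 µM and 48 h, Alas1 is high in both acetaminophen groups at 48 h, and Cyp1a1 overlaps between all groups.

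**Figure D2:**
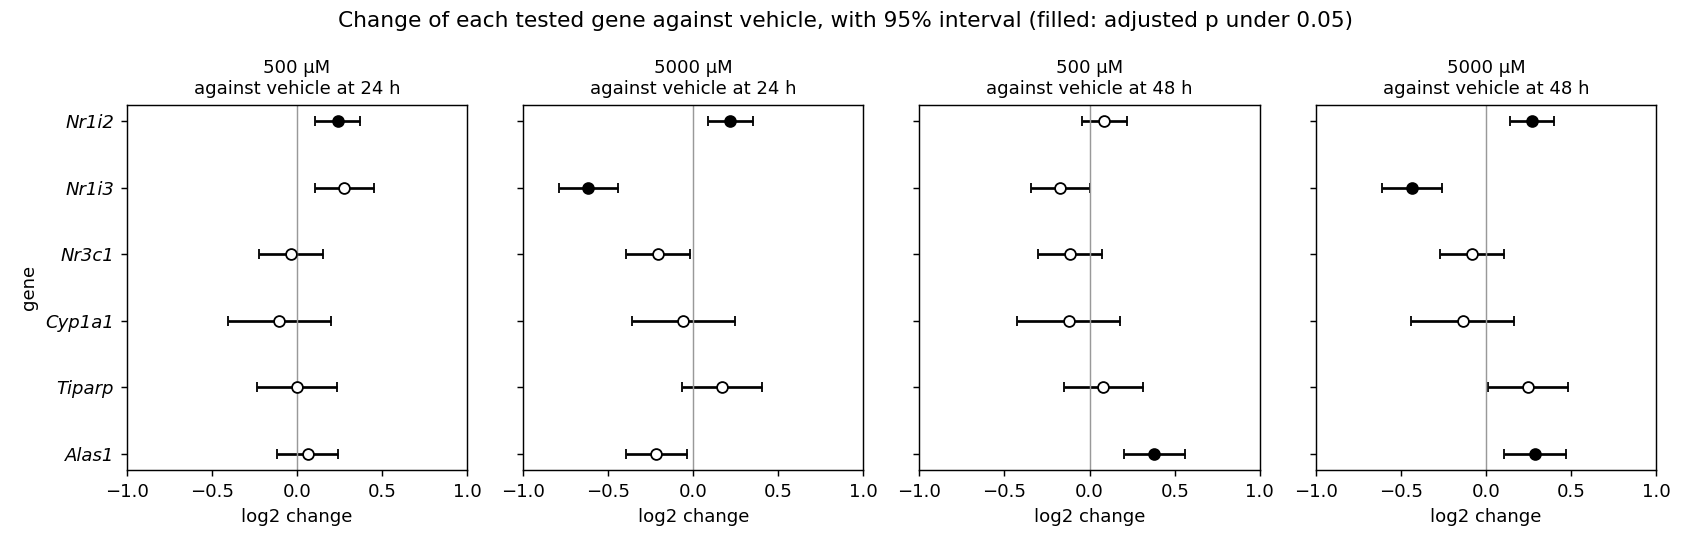
Change of the 6 tested genes against vehicle on the log2 scale, with 95% confidence intervals, for each dose and time. Filled points passed an adjusted p of 0.05; Nr1i2 and Nr1i3 lie on opposite sides of 0 at 5000 µM at both times.

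PXR transcript rose at 5000 µM at both times and CAR transcript fell there. Nr1i2 (probe set 1369270_at) had signals of 6040.2, 6189.9, 5880.0, 5989 and 5930.3 at 5000 µM and 48 h, against 5355, 5498, 4911, 4586 and 4606 in vehicle. Every treated well was above every vehicle well, and the rise was 0.27 ± 0.06 on the log2 scale (limma, adjusted p = 0.00136), a 1.21-fold difference. At 24 h the signals were 4962, 5928, 4648, 5354 and 5784 at 5000 µM and 4465, 4674, 4598, 4380.1 and 4723 in vehicle, so the lowest treated well fell inside the range of the vehicle wells. The rise there was 0.22 ± 0.06 (limma, adjusted p = 0.00732), and it did not pass with the actin ratio as a covariate, at 0.17.

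The Nr1i2 signals at 500 µM and 24 h were 5218, 4851, 5459, 6044 and 5469.7, all above those of the vehicle wells at that time. The rise was 0.24 ± 0.06 (limma, adjusted p = 0.0338), about the size seen at 5000 µM, from which it differed by -0.02 ± 0.06 (95% interval -0.15 to 0.11). The call at 500 µM was lost when any one of 7 of the 10 wells was left out, vehicle replicates 1, 2, 3 and 4 and 500 µM replicates 3, 4 and 5, with adjusted p-values of 0.0527 to 0.130 and changes of 0.20 to 0.25. It was lost too with the actin ratio as a covariate and with only these 2 groups in the fit. At 48 h the signals at 500 µM were 5149, 5659.8, 5383, 5054 and 5205, which overlapped the vehicle wells, and the difference was 0.09 ± 0.06 (95% interval -0.04 to 0.22). Nr1i2 was higher at 5000 µM than at 500 µM at 48 h by 0.18 ± 0.06 (limma, adjusted p = 0.0195), where the actin ratio also differed, and the difference did not pass with that ratio as a covariate (0.11) or with its gap as a block (0.10).

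Ordered by mean log2 level, Nr1i2 was highest at 5000 µM and 48 h (12.55), followed by 500 µM at 24 h (12.40), 5000 µM at 24 h (12.38), 500 µM at 48 h (12.37), vehicle at 48 h (12.28) and vehicle at 24 h (12.16). The wells of each group overlapped those of the next in this order. The whole span of group means was 0.40 on the log2 scale, against a within-group SD of 0.10. The effects of the 5000 µM dose at 48 and 24 h differed by 0.05 ± 0.09, and those of the 500 µM dose by -0.15 ± 0.09, neither of which passed.

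Nr1i3 (1368797_at), the CAR gene, gave the largest change from vehicle among the 6 tested genes, a fall at 5000 µM. At 5000 µM and 24 h its signals were 1909.8, 2169.9, 1938, 2390.0 and 2225, against 3207, 3055, 3195, 3479.8 and 3321 in vehicle. The treated wells all lay under the vehicle wells, and the fall was -0.62 ± 0.09 on the log2 scale (limma, adjusted p = 7.33e-07), to 0.65 of the vehicle level. At 48 h the signals were 2518, 2273, 2355, 2455 and 2556 at 5000 µM and 3808, 3612, 3618, 2769 and 2759.6 in vehicle. These groups did not overlap either, although vehicle replicates 4 and 5 were near the treated wells, and Nr1i3 fell by 0.43 on the log2 scale (SE 0.09, limma, adjusted p = 1.57e-04). Both falls were called under all 10 other settings and with each well left out.

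Nr1i3 pointed the other way at the low dose and 24 h. Its signals of 3739, 3628, 4005, 4524 and 3862 were all above the vehicle wells at that time, but the difference of 0.28 ± 0.09 did not pass over all tested genes (limma, adjusted p = 0.0714). It passed with arrays centred on their medians and with the ratio gap as a block, and the adjusted p ranged from 0.0388 to 0.122 over the 10 other settings. At 48 h the signals at 500 µM were 2581, 2908, 3055, 3226 and 2843, within or near the range of the vehicle wells, and the difference was -0.17 ± 0.09 (adjusted p = 0.107). That difference passed with 2 scalings of the arrays and without vehicle replicate 4 or 5 (changes of -0.23 each), and with the ratio gap as a block it was -0.03 (adjusted p = 0.908).

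The 2 doses differed from each other in Nr1i3 at both times. At 24 h it was lower at 5000 µM than at 500 µM by -0.89 ± 0.09 (limma, adjusted p = 9.61e-10), a comparison in which 2 of the 6 tested genes were called against 31.2% of all tested genes, and 3 had wells that did not overlap, against 19.4%. At 48 h the difference was -0.26 ± 0.09 (adjusted p = 0.0119), with 2 of 6 tested genes called against 47.6% of all tested genes and 2 without overlap against 32.9%, and it did not pass with arrays centred on their medians (-0.16) or with quantile normalization (-0.20). The effect of 500 µM at 48 h was lower than its effect at 24 h by -0.45 ± 0.12 (limma, adjusted p = 0.00474), in a comparison that called 2 of the 6 genes and 36.6% of all tested genes. With the actin ratio as a covariate this difference was -0.35 (adjusted p = 0.274), and with the ratio gap as a block -0.31 (adjusted p = 0.146).

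In order of mean log2 level, Nr1i3 was highest at 500 µM and 24 h (11.94), then in vehicle at 48 h (11.68) and 24 h (11.67), at 500 µM and 48 h (11.51), at 5000 µM and 48 h (11.25) and at 5000 µM and 24 h (11.05). Of neighbours in this order, only 500 and 5000 µM at 48 h had wells that did not overlap. The Kupffer cell and leukocyte marker sum was lower at 5000 µM too, as given above. Cd14, which encodes an endotoxin co-receptor, was the only tested gene of that sum called there. It fell by 0.54 at 24 h and by 0.28 at 48 h on the log2 scale. Cd14 was also among the 3 genes whose pattern over the 30 arrays was most like that of Nr1i3 (Pearson r 0.88, across arrays that share groups). The part of that marker change in the fall of Nr1i3 was not tested.

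Nr3c1, the glucocorticoid receptor gene, was called in none of the 4 comparisons with vehicle. At 5000 µM and 24 h its signals (1368221_at) were 4863, 4449.7, 4279, 4354 and 4702, against 6193, 4149, 4949, 5802 and 5282 in vehicle. Vehicle replicate 2 lay under all treated wells and the other vehicle wells above them, and the difference of -0.21 ± 0.09 did not pass (limma, adjusted p = 0.0752), but it did without that well (-0.29, adjusted p = 0.0104). The other differences from vehicle were -0.04 at 500 µM and 24 h (95% interval -0.22 to 0.15), -0.12 at 500 µM and 48 h (-0.30 to 0.07) and -0.08 at 5000 µM and 48 h (-0.27 to 0.11). Group means of log2 signal lay between 12.14 at 5000 µM and 24 h and 12.49 in vehicle at 48 h, with overlapping wells between all neighbours in order but 500 and 5000 µM at 24 h. The second Nr3c1 probe set was dim, at signals of 147 to 508, and was called in no comparison.

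Rxra (1369101_at), the gene of the partner that PXR and CAR share, was read from a dim probe set whose wells spread widely. Its signals were 297, 166, 162, 270 and 296 at 5000 µM and 24 h, against 183, 156, 515, 149 and 412 in vehicle. At 48 h they were 314, 101, 389, 289 and 266 at 5000 µM, against 429, 467, 235, 386 and 310 in vehicle. Groups overlapped in all comparisons, none passed, and the largest difference from vehicle was -0.51 ± 0.37 at 5000 µM and 48 h (95% interval -1.28 to 0.25). Its interval at 5000 µM and 24 h, -0.86 to 0.66, holds a fall as large as that of Nr1i3 there, so a fall of that size was neither shown nor excluded with this probe set.

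Ahr was dim as well, with signals of 98.8 to 350 for its brightest probe set (1369146_a_at) and 67.5 to 394 for the second. For the first, the differences from vehicle were 0.28 ± 0.27 at 500 µM and 0.45 ± 0.27 at 5000 µM at 24 h, and -0.60 ± 0.27 and -0.09 ± 0.27 at the same doses at 48 h. None passed, with the smallest adjusted p at 500 µM and 48 h (limma over all named genes, 0.110), a difference that passed without vehicle replicate 1 (-0.77, adjusted p = 0.0448). The second probe set had a difference of -0.46 ± 0.43 at 5000 µM and 24 h, where the first gave a positive value. Neither probe set was called in any comparison, and the wells of the groups compared overlapped.

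Arnt (1369244_at) had the lowest signals of the set, 16.2 to 308, at which single arrays differ several-fold within a group. Arnt gave 57.6, 99.4, 83, 166 and 40.7 at 500 µM and 48 h, against 46.5, 26.3, 24.2, 30.3 and 16.2 in vehicle. The treated wells were higher but overlapped the vehicle wells, and the difference of 1.56 ± 0.55 passed in the fit of all named genes (limma, adjusted p = 0.0366, where 24.4% of all named genes were called). It was lost with 64 added to each signal (0.68), with the actin ratio as a covariate or the ratio gap as a block, and without any one of 7 of the 10 wells, vehicle replicates 2, 3, 4 and 5 and 500 µM replicates 2, 3 and 4 (adjusted p of 0.0524 to 0.112, changes of 1.29 to 1.60). Mean log2 levels were 4.76 in vehicle and 6.32 at 500 µM at 48 h, against 6.28 in vehicle at 24 h, so vehicle at 48 h was the low group. In the other 3 comparisons with vehicle Arnt differed by 0.09 to 0.87 and was not called.

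**Figure D3:**
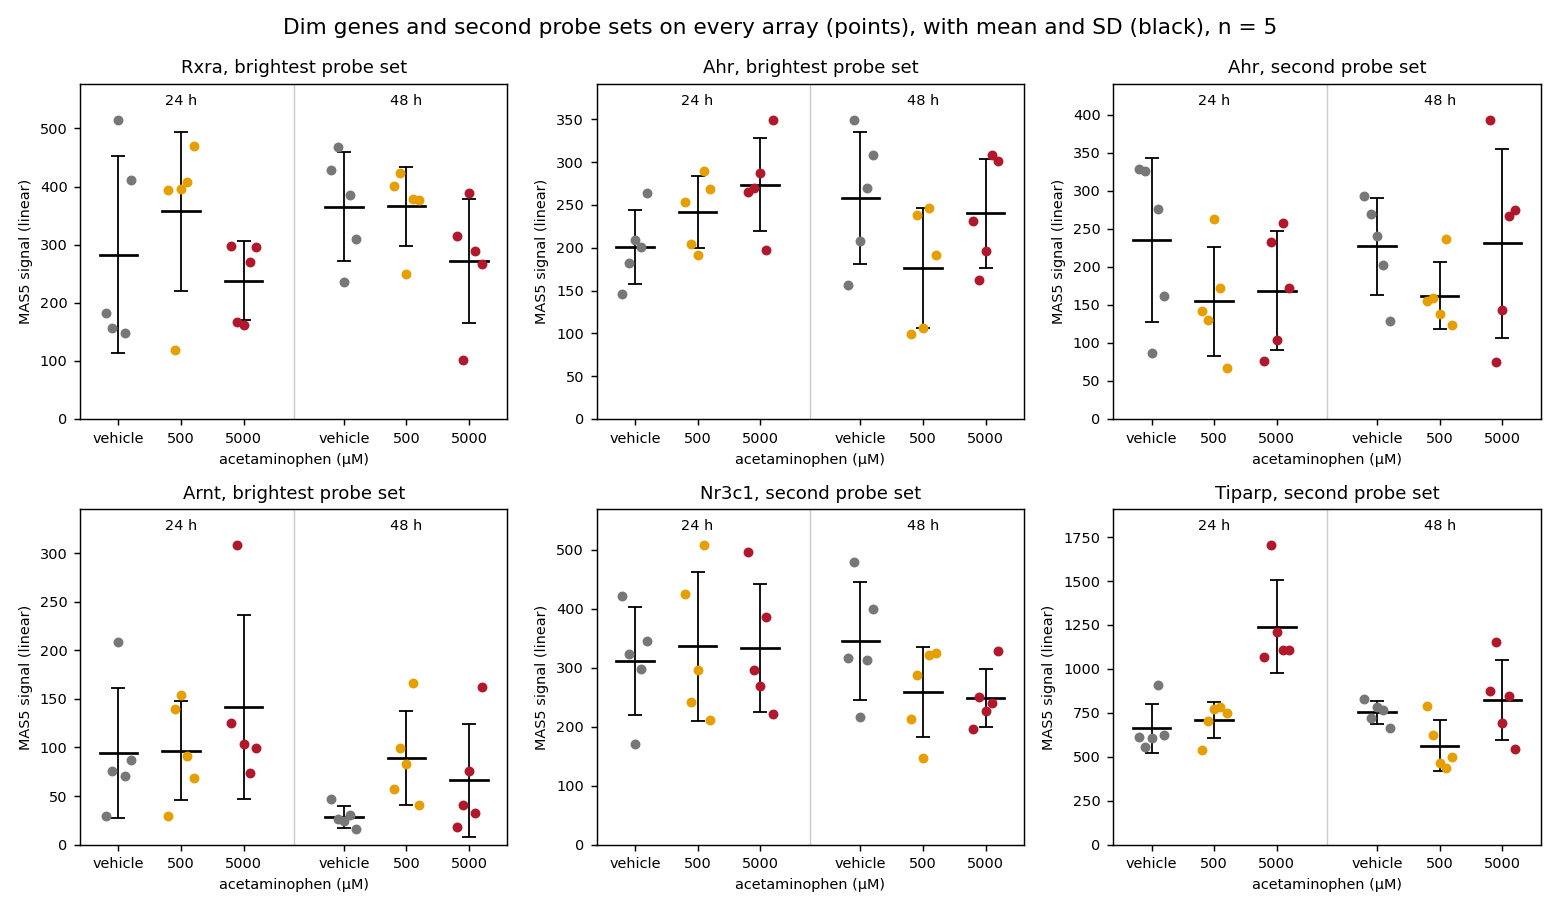
MAS5 signal (linear) of the 3 genes under the brightness filter and of the second probe sets on every array, by acetaminophen concentration (µM) and time, with mean and SD (black, n = 5). The second Tiparp probe set is separated from vehicle at 5000 µM and 24 h, and the other panels show overlapping wells.

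Cyp1a1, the classic AhR target, had high signals in all wells, and no difference between groups was called. Its signals (1370269_at) were 25181, 29927, 18030.3, 20674 and 22055 at 5000 µM and 24 h, against 27020.4, 21791, 25103, 23070.4 and 22234 in vehicle. At 48 h they were 29126, 29680.3, 28706, 21472 and 16923 in vehicle, 25565, 26190.1, 24164, 23564 and 15440.1 at 500 µM, and 25569, 25229, 23405, 22830.5 and 16323 at 5000 µM. In each group at 48 h replicate 5 was the lowest well, and the groups overlapped throughout. The differences from vehicle were -0.10 at 500 µM and 24 h (95% interval -0.41 to 0.20), -0.06 at 5000 µM and 24 h (-0.36 to 0.24), -0.12 at 500 µM and 48 h (-0.42 to 0.18) and -0.14 at 5000 µM and 48 h (-0.44 to 0.17). None was called under any of the 10 other settings or with any well left out, and the spread of the 6 group means, 0.15 on the log2 scale, was smaller than the SD within groups of 0.26.

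The 2 probe sets of Tiparp disagreed at the high dose. The brighter one (1374446_at) had signals of 5082, 4525, 3696, 3779 and 4833 at 5000 µM and 24 h, against 5289, 2967, 3591, 4259 and 3611 in vehicle, which overlapped, and a difference of 0.17 ± 0.12 (adjusted p = 0.264). The second (1385407_at) had 1069, 1703, 1209, 1105 and 1108 at 5000 µM, against 613, 557, 607, 907 and 621 in vehicle. All treated wells were above all vehicle wells in this second probe set, and the difference was 0.91 ± 0.18 (limma over all probe sets, adjusted p = 3.01e-04, where 15.9% of probe sets were called). It was also higher at 5000 than at 500 µM at 24 h, by 0.79 ± 0.18 (adjusted p = 0.00183), where 11.4% of probe sets were called, and the wells at 500 µM, with 538, 705, 770, 786 and 749, overlapped those of vehicle. At 48 h the doses differed in it by 0.54 ± 0.18 (limma over all probe sets, adjusted p = 0.0279), against 19.4% of probe sets called, and their wells overlapped. The actin ratio was lower at 5000 µM than in vehicle at 24 h, and lower at 5000 µM than at 500 µM at 48 h (1.21 against 1.86). Its part in this probe set was not tested.

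At 48 h it was the brighter Tiparp probe set whose wells stood apart from vehicle. It gave 4029.9, 3684, 3853, 3679.9 and 3838 at 5000 µM, all above the vehicle wells at 3588, 2969, 3473, 3472 and 2677, but the difference of 0.25 ± 0.12 did not pass (limma, adjusted p = 0.103). The second had 871, 1154, 693, 845 and 545 at 5000 µM, spread across the vehicle wells at 831, 719, 785, 764 and 664, with a difference of 0.09 ± 0.18. Its effect at 48 h was lower than at 24 h by -0.82 ± 0.25 (limma over all probe sets, adjusted p = 0.0485, where 5.21% of probe sets were called). With both probe sets averaged Tiparp rose by 0.54 at 5000 µM and 24 h (adjusted p = 4.43e-04, range over the 10 other settings 4.43e-04 to 0.350), so whether Tiparp changed depends on the probe set. The annotation used here does not say which part of the transcript each one covers.

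Alas1 (1367982_at) rose at 48 h at both doses. Its signals at 500 µM were 18664, 18205, 21289.8, 22739 and 21280.2, against 15462, 17928, 14999.7, 13557 and 16623 in vehicle. All 500 µM wells were above the vehicle wells, and the rise was 0.38 ± 0.09 on the log2 scale (limma, adjusted p = 0.00106), a 1.30-fold difference. It was called under all 10 other settings, also with the actin ratio as a covariate or its gap as a block, and with each well left out. At 48 h all 5 wells of 500 µM and none of the vehicle wells lay above that gap. Neither of these 2 settings can therefore separate the ratio from the dose here. At 5000 µM the signals were 17051, 19304, 19251, 20698 and 19489, the lowest of which lay inside the vehicle range, and the rise was 0.29 ± 0.09 (adjusted p = 0.0111). The doses did not differ beyond the spread at 48 h, with a difference of -0.09 ± 0.09 (95% interval -0.27 to 0.09).

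At 24 h the high dose pointed down. Alas1 had 12555, 19739, 16819, 16543 and 18371 in vehicle, 16461, 16936, 15817, 20214 and 17658 at 500 µM, and 14258, 13646, 14207, 15103 and 14332 at 5000 µM. The 5000 µM wells were close together and under all vehicle wells but replicate 1, and the difference from vehicle of -0.22 ± 0.09 narrowly missed the threshold (limma, adjusted p = 0.0520), while without vehicle replicate 1 it was -0.32 and passed, as it did in 4 of the 10 other settings. Against 500 µM the groups did not overlap and Alas1 was lower at 5000 µM by -0.28 ± 0.09 (adjusted p = 0.0150), a call lost without 500 µM replicate 4 (-0.22, adjusted p = 0.0594). The effect of 5000 µM therefore differed between the times, by 0.51 ± 0.13 (48 h minus 24 h, limma, adjusted p = 0.00504), where 16.4% of all tested genes were called and Alas1 was the 1 of the 6. For 500 µM the same difference was 0.32 ± 0.13 (adjusted p = 0.0454), and it passed in only 3 of the 10 other settings and with 6 of the 20 wells left out.

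By mean log2 level, Alas1 was highest at 500 µM and 48 h (14.31) and 5000 µM and 48 h (14.22), then at 500 µM and 24 h (14.08), in vehicle at 24 h (14.02) and 48 h (13.93), and lowest at 5000 µM and 24 h (13.80). The wells of neighbours in this order overlapped. In vehicle alone, 48 against 24 h called none of the 6 tested genes in limma, against 32.5% of all tested genes, and none had wells without overlap, against 22.8%, while 1 of the 6, Tiparp, had an unadjusted p under 0.05 (-0.27 ± 0.12).

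The stretches of 250 bases before the annotated start are shown for Nr1i2, Tiparp and Alas1, members with a probe set called higher than vehicle at some dose and time, since AhR and the nuclear receptors bind such regions. That of Arnt, whose dim probe set was called once, is not shown. The 3 stretches come from RefSeq on build GRCr8, at chr11:75965467-75965716 on the plus strand for Nr1i2, chr2:152063519-152063768 on the plus strand for Tiparp and chr8:115768643-115768892 on the minus strand for Alas1, and run 5′ to 3′. Capitals mark matches, on either strand, to GCGTG, the core of the AhR and ARNT element, to AGGTCA and AGTTCA, half-sites of nuclear receptors that pair with RXR, and to AGAACA, the glucocorticoid receptor half-site.
Nr1i2: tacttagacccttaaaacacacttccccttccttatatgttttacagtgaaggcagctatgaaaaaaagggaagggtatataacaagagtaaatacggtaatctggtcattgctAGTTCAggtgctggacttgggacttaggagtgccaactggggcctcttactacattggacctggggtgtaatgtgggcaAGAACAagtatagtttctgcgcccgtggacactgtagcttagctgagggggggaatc
Tiparp: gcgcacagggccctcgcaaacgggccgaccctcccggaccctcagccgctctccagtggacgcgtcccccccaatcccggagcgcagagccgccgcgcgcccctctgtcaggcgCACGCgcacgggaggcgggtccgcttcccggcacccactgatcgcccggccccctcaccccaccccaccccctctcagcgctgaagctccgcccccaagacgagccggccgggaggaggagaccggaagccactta
Alas1: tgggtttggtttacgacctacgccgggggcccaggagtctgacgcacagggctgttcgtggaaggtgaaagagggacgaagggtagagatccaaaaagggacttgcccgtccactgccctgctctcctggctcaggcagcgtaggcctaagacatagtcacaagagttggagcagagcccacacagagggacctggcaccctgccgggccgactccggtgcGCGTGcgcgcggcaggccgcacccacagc

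GCGTG stood 136 to 132 bases before the start of Tiparp, on the minus strand, and 29 to 25 bases before that of Alas1. It was found in 25.9% of 33469 such windows of all genes, and also in those of Arnt and Nr3c1. In Nr1i2, AGTTCA stood at 136 to 131 bases and AGAACA at 57 to 52 bases before the start, motifs that 12.2% and 17.5% of all windows held. AGGTCA, in 14.1% of all windows, was in none of the members' windows, which 8 of the 9 members had. Cyp1a1 had no window, so none of these motifs was searched for there. A match of so few letters is a description of these windows and says nothing on binding.

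Other target genes of PXR and CAR moved in both directions. Of 28 further targets listed, 18 were tested, and at 5000 µM and 24 h 2 rose and 9 fell, where 18.6% of all tested genes rose and 19.6% fell, with a list median of -0.25 against -0.00 for all tested genes. The fall was largest for Slco1a4, an organic anion transporter (-1.42 ± 0.18), Ugt2b1, a glucuronosyltransferase (-1.17 ± 0.10), Abcc3, an efflux pump for conjugates (-0.88 ± 0.10), and the cytochrome P450 Cyp3a18 (-0.58 ± 0.06). Ugt2b1 averaged 20904 ± 2825 at 5000 µM and 46828 ± 4695 in vehicle at that time (SD, n = 5 each). The 2 that rose were Gadd45b, a stress response gene that CAR induces in mouse liver (0.53 ± 0.08), and Cyp3a2 (0.25 ± 0.08).

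At 5000 µM and 48 h 3 of the 18 rose and 5 fell, with 14.6% of all tested genes rising and 18% falling, and a list median of -0.02 against -0.01. Cyp3a18 fell by 1.18 on the log2 scale (SE 0.06), and so did Abcb1a, a drug efflux pump (-0.99 ± 0.17), and Ugt2b1 (-0.94 ± 0.10). Por, the electron donor of microsomal cytochrome P450 enzymes, rose by 0.44 ± 0.08, Gadd45b by 0.39 ± 0.08 and Cyp3a2 by 0.34 ± 0.08. Cyp3a2 and Cyp3a18 are close relatives, as are the Cyp2b genes, and how far their probe sets cross-hybridise was not tested. The low dose at 24 h raised 1 and lowered 2 of them, where 1.65% of all tested genes rose and 1.21% fell, with a median of 0.05 against -0.02. Cyp2c6v1 rose by 0.20 and Abcc3 (-0.40 ± 0.10) and Abcc2 (-0.26 ± 0.07) fell, and each call was lost under some other setting or without some single wells.

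Of the 18 PXR and CAR targets, 8 rose and 1 fell at 500 µM and 48 h, where 24.0% of all tested genes rose and 18.6% fell, and the median was 0.07 against 0.01. Those with the largest rises were Slco1a4 (0.80 ± 0.18), Por (0.55 ± 0.08), Cyp3a2 (0.54 ± 0.08) and Abcc3 (0.41 ± 0.10). All 5 wells of 500 µM had a high actin ratio here, and only 3 of the 18, Cyp2b3, Cyp3a2 and Por, were called once it was a covariate, all higher. Cyp3a2 and Por kept their calls with the covariate and with the block, and Slco1a4 and Abcc3 lost theirs. As the ratio and the dose go together here, neither a kept nor a lost call separates them. With all its probe sets averaged the rise of Por did not pass.

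**Figure D4:**
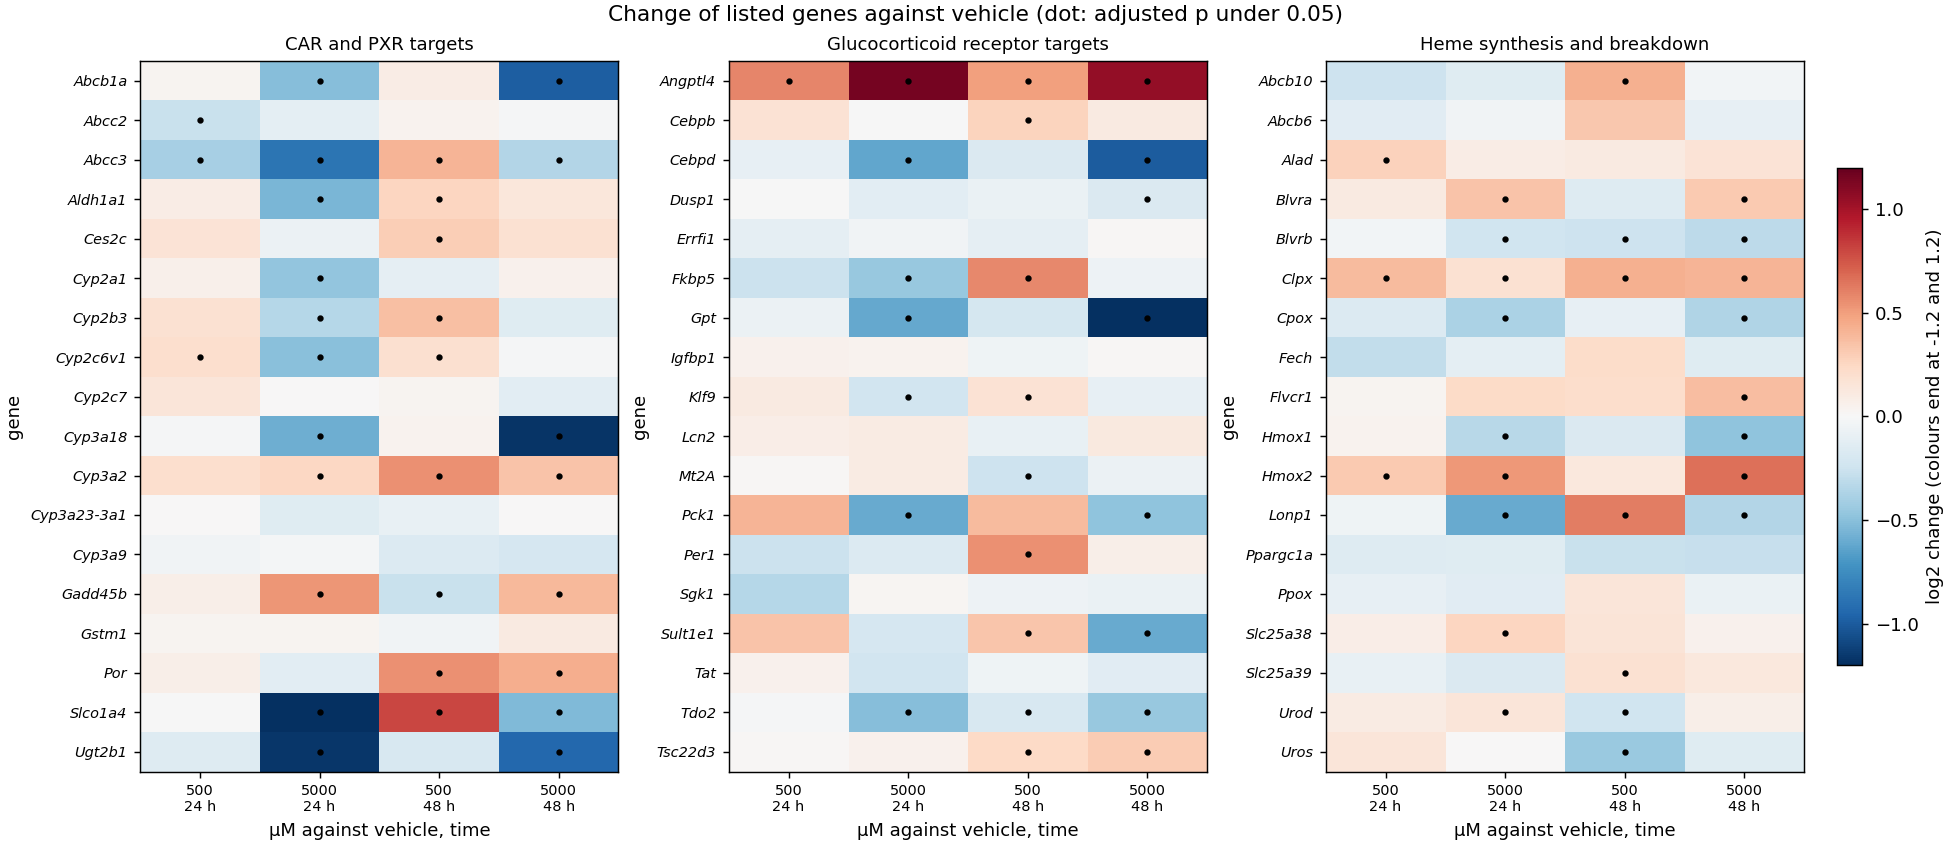
Change against vehicle on the log2 scale (colour) of the tested CAR and PXR targets, glucocorticoid receptor targets and heme synthesis and breakdown genes, by dose in µM and time, with a dot where the adjusted p was under 0.05. At 5000 µM and 24 h 9 of 18 CAR and PXR targets fell, Angptl4 rose in all 4 comparisons, and Hmox2 and Clpx rose where Hmox1 and Cpox fell.

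Among 6 further tested AhR targets, none changed at 500 µM and 24 h (limma), where 1 had an unadjusted p under 0.05, and 2 fell at 5000 µM at each time, against 19.6% of all tested genes at 24 h and 18% at 48 h. Lpin1, a phosphatidate phosphatase, fell at 5000 µM by 0.75 (SE 0.12) at 24 h and by 0.51 (SE 0.12) at 48 h, the amino acid transporter gene Slc7a5 fell at 24 h (-0.47 ± 0.17), and Nfe2l2, which encodes NRF2, at 48 h (-0.14 ± 0.05). Cyp1a2, the relative of Cyp1a1 that oxidises acetaminophen, differed by 0.04 ± 0.12 at 5000 µM and 24 h and by 0.29 ± 0.12 at 5000 µM and 48 h and passed at neither time (adjusted p = 0.820 and 0.0643). Nqo1, a quinone reductase, differed by 0.12 ± 0.07 and 0.05 ± 0.07 at those times. Lpin1 was called higher at 500 µM and 48 h (0.57 ± 0.12), but not with the covariate. The calls of Slc7a5 and Nfe2l2 were also lost under some settings or without single wells. Of 6 tested partners of the AhR complex none changed at 24 h at either dose, with 0 at an unadjusted p under 0.05, and at 5000 µM and 48 h Hif1a, an oxygen-sensing partner of ARNT, was called higher, by 0.24 ± 0.09, a call lost without any one of 7 of the 10 wells, where 14.6% of all tested genes rose. Of those partners 3 were called higher at 500 µM and 48 h, against 24.0% of all tested genes, and none with the covariate.

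Of 18 tested glucocorticoid receptor targets, 1 rose and 6 fell at 5000 µM and 24 h, where 18.6% of all tested genes rose and 19.6% fell, and the list median was -0.14 against -0.00. The high dose at 48 h had 2 higher and 6 lower, against 14.6% and 18% of all tested genes, with a median of -0.07 against -0.01. Gpt, an alanine aminotransferase, fell by 0.61 (SE 0.13) and 1.60 (SE 0.13) on the log2 scale at 24 and 48 h, and Cebpd, a transcription factor, by 0.62 and 1.00 (SE 0.16 each), although with the probe sets of Cebpd averaged it did not pass. Tdo2, the first enzyme of tryptophan breakdown, fell by 0.51 and 0.45 (SE 0.07 each). Angptl4, an inhibitor of lipoprotein lipase that other nuclear receptors also induce, rose by 1.15 ± 0.06 and 1.06 ± 0.06 at those times and by 0.59 ± 0.06 and 0.50 ± 0.06 at 500 µM. Its signal averaged 20068 ± 1593 at 5000 µM and 24 h, against 9039 ± 649 in vehicle (SD, n = 5 each). At 500 µM and 24 h Angptl4 was the 1 of 18 called, where 2.86% of all tested genes were. At 500 µM and 48 h 7 were higher and 2 lower, against 24.0% and 18.6% of all tested genes, and with the covariate 2 and 0.

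Fkbp5, a cochaperone that glucocorticoids induce, fell at 5000 µM and 24 h (-0.46 ± 0.10) and was higher at 500 µM and 48 h (0.58 ± 0.10), and both calls were lost with the covariate. Of the 10 tested chaperones of the glucocorticoid receptor complex, 3 rose and 2 fell at 5000 µM and 24 h and 3 rose at 48 h, near the 38.1% and 32.6% of all tested genes called there, with medians of 0.04 at both times. Stub1, a ubiquitin ligase of chaperone clients, rose by 0.37 ± 0.09 and 0.58 ± 0.09 at those times, and Stip1, which bridges HSP70 and HSP90, by 0.21 ± 0.08 and 0.43 ± 0.08. None was called at 500 µM and 24 h, where 1 had an unadjusted p under 0.05, and 4 rose at 500 µM and 48 h, where 42.6% of all tested genes were called, and none with the covariate. Of the 11 tested genes of CAR retention and release none was called at 500 µM and 24 h, where 2 had an unadjusted p under 0.05, 1 rose and 2 fell at 5000 µM and 24 h and 1 fell at 48 h, both under the 38.1% and 32.6% of all tested genes. Ppp2cb, a catalytic subunit of the phosphatase PP2A, was the one that rose (0.23 ± 0.06). The falls were those of Ppp2ca, the other such subunit (-0.51 ± 0.06), and Prkaa1, a subunit of the kinase AMPK (-0.50 ± 0.06), and with their probe sets averaged neither passed, while Ppp2ca then had a positive value of 0.26. Of the 11, 3 were higher and 2 lower at 500 µM and 48 h, near the 42.6% of all tested genes, and none was called with the covariate.

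The other genes of heme synthesis and breakdown changed in both directions. Of 18 tested, 3 rose and none fell at 500 µM and 24 h, where 1.65% of all tested genes rose and 1.21% fell. At 5000 µM 5 rose and 4 fell at 24 h, against 18.6% and 19.6% of all tested genes, and 4 rose and 4 fell at 48 h, against 14.6% and 18%. The list medians were 0.00, -0.08 and -0.06, against -0.02, -0.00 and -0.01. Clpx, a mitochondrial unfoldase that acts on ALA synthase, rose in these 3 comparisons by 0.38 ± 0.05, 0.18 ± 0.05 and 0.41 ± 0.05. Hmox2, the constitutive heme oxygenase, rose by 0.31 ± 0.07, 0.52 ± 0.07 and 0.66 ± 0.07. Hmox1, the inducible one, fell at 5000 µM by 0.33 and 0.48 (SE 0.08 each), and Cpox, which acts late in heme synthesis, fell there by 0.38 and 0.37 (SE 0.05 each). Of the 18, 4 rose and 3 fell at 500 µM and 48 h, near the 42.6% of all tested genes called, and with the covariate 1 rose, Clpx, by 0.43 ± 0.05 without it. The brightest probe set of Lonp1, a mitochondrial protease that degrades ALAS1, had changes of -0.61 ± 0.10 and -0.35 ± 0.10 at 5000 µM, but the mean of its probe sets gave 0.19 at 24 h and -0.09 at 48 h, neither called.

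Among receptors that share RXR with PXR and CAR, Nr1h3, the gene of the oxysterol receptor LXR alpha, fell by 0.99 (SE 0.08) at 5000 µM and 24 h and by 0.63 (SE 0.08) at 48 h, and averaged 2743 ± 218 at 5000 µM and 24 h, against 5445 ± 227 in vehicle (SD, n = 5 each). In all, 1 of 9 tested genes of that list rose and 2 fell at 24 h and none rose and 2 fell at 48 h, under the 38.1% and 32.6% of all tested genes called there. Rarb, a retinoic acid receptor, was the other that fell (-0.37 ± 0.10 and -0.30 ± 0.10), at 24 h not with the covariate. Rxrg was the 1 called at 500 µM and 24 h, where 2.86% of all tested genes were, at 0.31 ± 0.08, and not with the covariate. Called higher at 500 µM and 48 h were 3 of the 9, where 24.0% of all tested genes were, and 1 with the covariate. Of 9 tested other liver nuclear receptors none was called at 24 h at either dose, with 0 and 2 at an unadjusted p under 0.05 at 500 and 5000 µM. By 48 h at 5000 µM Nr1d2, a clock repressor, rose (0.46 ± 0.09) and Rora, its activating counterpart, fell (-0.55 ± 0.13), although not with its probe sets averaged, which made 2 of the 9 against 32.6% of all tested genes.

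Of those 9 receptor genes, 5 rose at 500 µM and 48 h, where 24.0% of all tested genes rose, and 1 with the covariate. That one was Hnf4a, a factor that defines hepatocytes, at 0.72 ± 0.10, with means of 15165 ± 1489 at 500 µM and 9199 ± 342 in vehicle (SD, n = 5 each). The vehicle wells at 24 h averaged 15326 ± 1540 (SD, n = 5), so of these means that of vehicle at 48 h was the low one. At 5000 µM and 48 h Hnf4a was not called against vehicle. Of 14 tested coactivators and corepressors none was called at 500 µM and 24 h, where 2 had an unadjusted p under 0.05, and at 5000 µM and 24 h 5 fell, against 19.6% of all tested genes. By 48 h 1 rose and 3 fell, against 14.6% and 18% of all tested genes. Foxa1, a pioneer factor of the liver (-0.62 ± 0.19), and Nrip1, a corepressor (-0.43 ± 0.09), were among the falls at 24 h, that of Foxa1 not with the covariate. Of the 14, 7 rose at 500 µM and 48 h, against 24.0% of all tested genes, and none with the covariate.

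The genes whose log2 signals were most like those of each member over the 30 arrays were found by Pearson correlation, which is a description, since arrays of a group share their treatment. For Nr1i2 they were Eci1 (0.81), Eci2 (0.79) and Hadh (0.78), enzymes of fatty acid oxidation, and for Nr1i3 Polg2 (0.90), Cd14 (0.88) and Akr1c1 (0.88). For Alas1 they were Cyp2j4 (0.89), Fasn (0.85) and Ces1d (0.85), for Nr3c1 Cav2, Mgarp and Slc44a4 (0.76 to 0.78), for Cyp1a1 Prr15 (0.85), Cited2 (0.81) and Zap70 (0.80), and for Tiparp Vegfa (0.72). The dim members reached 0.56 (Rxra with Golt1a), 0.74 (Ahr with Rab14) and 0.73 (Arnt with Slc31a1).

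Among the 6 tested members themselves, the PXR and CAR genes had r = -0.17 over all arrays and r = 0.62 after each array's group mean was taken off, so that wells high in Nr1i2 within a group tended to be high in Nr1i3 while the groups themselves did not follow one another. Tiparp and Alas1 were opposed both over all arrays (r = -0.56) and within groups (r = -0.74). Nr3c1 had r = 0.60 with Tiparp within groups and 0.03 over all arrays. The part of RNA quality in these values was not tested.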

How the data were processed

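Gene expression in primary rat hepatocytes was measured on 30 one-colour Affymetrix rat 230 2.0 arrays, 5 in each of 6 groups taken from the sample titles. The authors deposited MAS5 signal intensity on a linear scale, per the submitters' processing notes, which name no version. Their 2% trimmed means lay between 1500.55 and 1500.66, so every array had been scaled to one target, and log2 of the values was taken here without rescaling. No depth or detection call was used, and the number of arrays limits the precision.

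Of 31099 probe sets 57 were controls, 20826 had 1 gene symbol, 436 several and 9780 none. Symbols were updated through Entrez identifiers (20758 matched). The brightest probe set per gene gave 14217 genes, of which the brightest 60% (8530) were tested. A model with a mean for each group used limma (version 3.58.1; R version 4.3.3) on the 30 arrays together (24 residual and 7.58 prior degrees of freedom), with eBayes with an intensity trend and Benjamini-Hochberg adjustment, in 9 comparisons. Genes under the filter were fitted with all named genes, and second probe sets with all probe sets. The fit was tested on simulated data. Members, 10 gene lists and marker lists were chosen with earlier results of these data known. Named were all members and, per list and comparison with vehicle, up to 4 called genes with the largest change, with direct partners of members, and for likeness 3 genes per member. Tdo2, Gadd45b, Cyp2b3, Cyp1a2 and Nqo1 lie outside this rule and were named after their values were seen. Alternatives were 2 other scalings, the mean of all probe sets, no filter and the brightest 40%, only the groups compared, 64 added to the signal, no intensity trend, the 3′/5′ actin ratio as a covariate and its gap (1.54 to 1.74, 12 arrays above) as a block, leaving out each well and, chosen after seeing the data, rounds of 6 array numbers as a block. Sequences were matched by symbol to RefSeq windows of GRCr8 (8 of 9 members, all but Cyp1a1).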

Additional observations from a re-analysis of the deposited data

Results flagged for a closer look

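Single wells stood apart from the other 4 of their group in 5 of the 54 groups of gene and dose and time that were examined, where chance gives about 1 in 20. The measure was the gap to the nearest well as a share of the group's range, both on the log2 scale, with a cut-off of 0.71. The signals given below are linear, so the shares do not follow from them directly. Rxra had a low well at 500 µM and 24 h (119 against 394 to 470, a gap of 0.872 of the range), at 500 µM and 48 h (249 against 377 to 423, a gap of 0.780) and at 5000 µM and 48 h (101 against 266 to 389, a gap of 0.719). Cyp1a1 had a low well at 500 µM and 48 h (15440.1 against 23564 to 26190.1, a gap of 0.800 of the range) and at 5000 µM and 48 h (16323 against 22830.5 to 25569, a gap of 0.748). Both Cyp1a1 wells were replicate 5, which was also the lowest of the vehicle wells at 48 h (16923).

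The effect of a dose differed between 48 and 24 h for 2 genes, by a test of the difference itself in limma. For Nr1i3 at 500 µM the difference was -0.45, with a higher value at 24 h (0.28) and a lower one at 48 h (-0.17), neither of which passed alone. For Alas1 it was 0.32 at 500 µM and 0.51 at 5000 µM, and at the high dose the value against vehicle was 0.29 at 48 h and -0.22 at 24 h. Only the Alas1 difference at 5000 µM passed in all 10 other settings and with each well left out. At 500 µM that of Nr1i3 passed in 8 of the 10, and not with the actin ratio as a covariate or its gap as a block. That of Alas1 at 500 µM passed in 3 of the 10, and with 6 of the 20 wells left out.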

How the results depend on the processing

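The titles number the arrays in 5 rounds that each hold 1 array of every group, and nothing says that a round marks a shared batch. Deviations from the group means correlated above 0.1 in 31 of the 75 pairs of arrays of one round (median 0.06, against -0.02 between rounds), so the numbers were not taken to pair the wells. Even so, with 5 rounds, 19 of the 30 arrays were closest to their own round. More genes were called in all 9 comparisons with the round as a block, such as 322 against 244 at 500 µM and 24 h and 3421 against 3252 at 5000 µM and 24 h. With the round as a replicate block, a setting chosen after seeing the data, 4 members were called at 5000 µM and 24 h, with Nr3c1 (-0.21, limma, adjusted p = 0.0309) and Alas1 (-0.22, adjusted p = 0.0333) added, and the count was the same in the other 8 comparisons, while Arnt, under the filter, passed in vehicle over time (-1.52, adjusted p = 0.0418). The falls of Nr1i3 at 5000 µM at both times, the rises of Nr1i2 and Alas1 at 5000 µM and 48 h and of Alas1 at 500 µM and 48 h were called under all 10 other settings and with each well left out. For Alas1 at 500 µM and 48 h, the covariate and the gap block cannot separate the actin ratio from the dose. The number of called members changed between settings. At 500 µM and 24 h (1) it was 2 with arrays centred on their medians and with the ratio gap as a block, and 0 with the actin ratio as a covariate and with only the groups compared. The count at 5000 µM and 24 h (2) was 3 with quantile normalization, the mean of all probe sets, the brightest 40% and the gap block, and with the covariate the 2 were Nr1i3 and Alas1. At 500 µM and 48 h (1) it was 2 with median centring and with quantile normalization, and at 5000 µM and 48 h (3) it was 4, Tiparp added, with only the groups compared. For 5000 against 500 µM (2 at each time) it was 3 with the mean of all probe sets at both times, and at 48 h 1 with quantile normalization, the covariate and the gap block, while median centring called Nr1i2 and Tiparp. In vehicle over time (0) it was 1 with median centring, namely Nr1i2. For the difference between times at 500 µM (2) it was 1 with the mean of all probe sets, without a filter, without the intensity trend and with only the groups compared, and 0 with the covariate and the gap block. With single wells left out it ranged from 0 to 1 and 2 to 4 at 500 and 5000 µM at 24 h, from 1 to 2 and 3 to 3 at 48 h, from 1 to 2 and 2 to 2 for 5000 against 500 µM at 24 and 48 h, from 0 to 1 in vehicle over time, and from 1 to 2 and 1 to 1 for the differences between times at 500 and 5000 µM. Over all tested genes, 3632 were called at 500 µM and 48 h, against 339 with the covariate and 484 with the gap block, and they split into 2044 higher and 1588 lower, against 1487 and 2229 with median centring. That centring also moved the median of all genes in the 500 µM difference between times to -0.09, against 0.04. In vehicle over time the calls numbered 2770, against 440 and 1190. Averaging all probe sets of a gene changed the sign of these listed genes: Klf9 (0.31), Lonp1 (0.19), Ncoa6 (0.044) and Ppp2ca (0.26) at 5000 µM and 24 h, Ppp2ca (0.29) at 5000 µM and 48 h, and at 500 µM and 48 h Hsp90ab1 (-0.14), Klf9 (-0.11), Slc25a39 (-0.022), Nr2f2 (-0.012), Ncoa6 (-0.72), Ep300 (-0.064), Ppp2r1a (-0.33) and Prkaa1 (-0.011), and Ep300 did so with the covariate too (-0.0067). The causes were not tested.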
